A study of Mus musculus with 2 samples.

Results

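The vascular microRNA genes described here were 7 of the 2202 microRNA genes counted in left cerebral cortex tissue of male B6CASTF1/J mice at 14 days of age. They were taken by name: Mir126a and Mir126b for endothelial cells, Mir143 and Mir145a for mural cells (smooth muscle cells and pericytes), and Mir214, Mir199a-1 and Mir199a-2 for perivascular fibroblasts. The rule for membership uses the name alone and no measured value, but members were chosen with earlier results of these data known. B6CASTF1/J mice are first-generation hybrids between the C57BL/6 and CAST/Ei strains. There were 2 libraries, biological replicates 1 and 2 of 1 group, untreated as far as the labels go, so no conditions were compared. Both carry 1 donor label. Their tissue records, numbered 03 and 04, each read "3x Males", and whether that means 3 pooled animals is not stated. SDs and tests therefore describe how far these samples lie apart, which could be technical spread.

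MicroRNAs are short RNAs cut from hairpin precursors. Each arm of a hairpin can give a mature strand, and bases 2 to 8 of that strand, the seed, pair with target mRNAs. The miR-126 hairpin sits in the endothelial gene Egfl7, and its mature form is known for supporting vascular growth factor signalling by repressing Spred1 and Pik3r2. The miR-143 and miR-145 hairpins come from a shared precursor and are known for holding smooth muscle cells in a contractile state. The hairpins of Mir214 and Mir199a-2 come from the non-coding RNA Dnm3os, while Mir199a-1, with the same mature sequences as Mir199a-2, lies elsewhere in the genome. miR-214 and miR-199a are known from mesenchymal cells and fibroblasts.

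The mature sequences listed for the members are given with the seed in capitals, because they bear on which reads could be counted. They are RefSeq sequences on build GRCm38.p6, which matched the mm10 positions of all 5 members found in that table; Mir143 and Mir145a are described by name and position.
mmu-miR-126a-3p: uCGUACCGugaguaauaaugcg
mmu-miR-126b-5p: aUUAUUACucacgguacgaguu
mmu-miR-126b-3p: cGCGUACCaaaaguaauaaugug
mmu-miR-214-5p: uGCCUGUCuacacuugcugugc
mmu-miR-214-3p: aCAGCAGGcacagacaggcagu
mmu-miR-199a-5p: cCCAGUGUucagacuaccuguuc
mmu-miR-199a-3p: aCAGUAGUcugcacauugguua
The seed of miR-214-3p was shared with Mir761 in the same table, which had 0 counts in both libraries. The miR-199a-3p seed was shared with Mir199b. The seeds of the listed miR-126 strands and of miR-214-5p were found in no other listed microRNA gene. For Mir126a only the 3p strand is listed, while its counts are not separated by arm.

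Depth set what could be seen. The libraries held 11224232 and 8758378 reads, of which 4111167 and 3189903 fell on the own strand of a microRNA gene. Values are given as CPM, counts per 1000000 of those reads. Genes with 10 or more counts in both libraries are called detected. A count of 0 allows up to 3 counts, or 0.730 CPM in the first library and 0.940 CPM in the second. Intervals and limits cover counting error only: no molecular identifiers were used, and reads are not independent molecules.

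Of the 7 members, 4 were detected, Mir126a, Mir143, Mir145a and Mir214, against 18.4% of all genes. Together the members held 1.56% of the counts in replicate 1 (exact Clopper-Pearson 95% interval 1.55 to 1.57%) and 1.84% in replicate 2 (1.83 to 1.86%), or 1.70% ± 0.201 (SD, n = 2). The endothelial members made up 66.9% of the members' counts in replicate 1 and 71.4% in replicate 2. The mural members made up 32.5% and 28.3%, and the fibroblast members 0.550% and 0.280%. Endothelial counts thus led mural counts in both libraries. The fibroblast share comes almost wholly from Mir214, because reads of the mature Mir199a sequences match several genomic positions and were not counted, so its place below the others is not a ranking of the whole group. In bulk tissue, fewer cells of a type and less RNA per cell cannot be told apart.

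**Figure D1:**
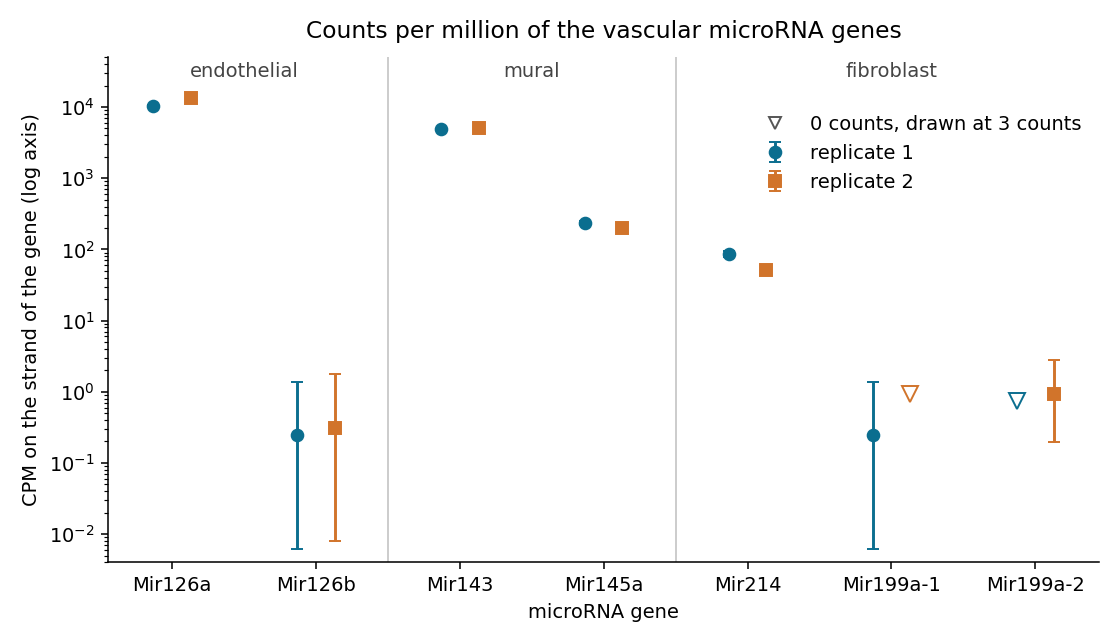
CPM on the strand of the gene (log axis) for the 7 members in replicate 1 (circles) and replicate 2 (squares), with exact Poisson 95% intervals; open triangles mark 0 counts, drawn at 3 counts. Mir126a and Mir143 stand above 4000 CPM in both libraries, Mir145a and Mir214 between 50.8 and 234 CPM, and the other 3 members below 1 CPM.

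Among the endothelial members, nearly every read came from Mir126a. Mir126a (ENSMUSG00000065540.1; mm10 chromosome 2, 26591357 to 26591429, plus strand) lies within Egfl7 on the same strand, in a stretch that is exon in some GENCODE M21 transcript. Its counts were 42956 in replicate 1 (10449 CPM) and 42031 in replicate 2 (13176 CPM), a mean of 11812 ± 1929 CPM (SD, n = 2). By mean CPM it was number 21 of the 406 detected genes, and number 22 and 20 in the single libraries. Ranks hold for counted reads only, since reads that match several genomic positions were given to no gene. The gene just above it, Mir652, stood at 12128 ± 1352 CPM and the gene just below, Mir125a, at 11729 ± 1174 CPM (SD, n = 2 each). These 3 levels lie closer together than their SDs.

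Mir126b (ENSMUSG00000105799.1; chromosome 2, 26591363 to 26591420, minus strand) is annotated on the other strand of the Mir126a hairpin. It had 1 count in each library, 0.243 CPM (exact Poisson 95% interval 0.00616 to 1.36) in replicate 1 and 0.313 CPM (0.00794 to 1.75) in replicate 2. All 58 bases of its hairpin are the reverse complement of bases 7 to 64 of the Mir126a hairpin. Both hairpins are shown 5′ to 3′, with the listed mature sequences in capitals.
Mir126a hairpin: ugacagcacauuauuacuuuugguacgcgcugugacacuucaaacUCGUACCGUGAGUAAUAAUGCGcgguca
Mir126b hairpin: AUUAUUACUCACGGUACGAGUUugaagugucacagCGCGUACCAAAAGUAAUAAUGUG
An unbroken run of 19 bases of miR-126b-5p is complementary to miR-126a-3p, so only the strand of a read separates the genes here. The minus strand held 0.00233% of the reads at the locus in replicate 1 (exact Clopper-Pearson 95% interval 5.89e-05 to 0.0130%) and 0.00238% in replicate 2 (6.02e-05 to 0.0133%).

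When strand was ignored, the endothelial signal was lost. Mir126a then kept 3 counts in replicate 1 and 0 in replicate 2, because a read over 2 genes was set aside as ambiguous. These reads, 42954 and 42032, made up 15.2% of all ambiguous reads in replicate 1 and 19.3% in replicate 2. Of 32 pairs of microRNA genes on opposite strands, 26 had a detected stronger strand, and all 26 kept under 10% of their counts when strand was ignored. Mir126a had the second highest count among them in replicate 1. In 18 of the 26 pairs the weaker strand had 0 counts in both libraries, and the highest share of a weaker strand in a single library was 27.6% in replicate 1 and 5.68% in replicate 2. No other member overlaps a microRNA gene on the opposite strand. Mir143 and Mir145a had the same counts with and without strand, and Mir214 had 353 in place of 352 in replicate 1.

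**Figure D2:**
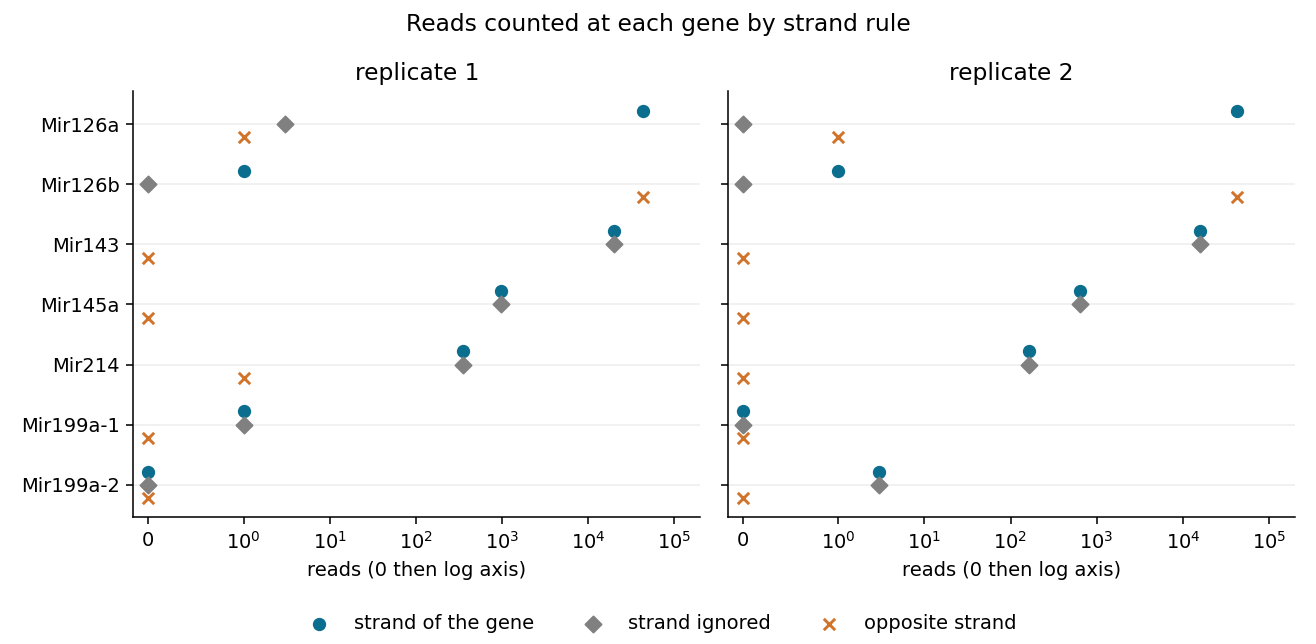
Reads at each member by strand rule in replicate 1 (left) and replicate 2 (right); the axis runs from 0 into a log scale. For Mir126a, 42956 and 42031 reads lie on the strand of the gene and 3 and 0 remain when strand is ignored, while for the mural members and Mir214 these symbols lie at the same place.

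The mural members differed from each other by more than 20-fold. Mir143 (ENSMUSG00000065445.3; chromosome 18, 61649196 to 61649258, minus strand) had 19900 counts (4840 CPM) in replicate 1 and 16000 counts (5016 CPM) in replicate 2, a mean of 4928 ± 124 CPM (SD, n = 2). It was number 37 of 406, between Mir128-2 (5185 ± 739 CPM) and Mir138-1 (4807 ± 235 CPM), both known from neurons, and each gap to a neighbour is smaller than the larger SD of the pair. Mir145a (ENSMUSG00000065592.2; chromosome 18, 61647825 to 61647894, minus strand) had 962 counts (234 CPM) in replicate 1 and 642 counts (201 CPM) in replicate 2, a mean of 218 ± 23.1 CPM. It was number 179, between Mir384 (220 ± 53.0 CPM) and Mir1306 (217 ± 25.5 CPM).

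The Mir143 and Mir145a hairpins lie 1301 bases apart on the same strand. RefSeq places both inside the non-coding gene Carmn, chromosome 18, 61645878 to 61665538. In GENCODE M21 Carmn ends 366 bases short of Mir143, and neither hairpin overlaps a host gene there. The ratio of Mir143 to Mir145a counts was 20.7 in replicate 1 (exact binomial 95% interval 19.4 to 22.1) and 24.9 in replicate 2 (23.0 to 27.0), or 22.8 ± 3.00 (SD, n = 2). Per base of hairpin the mean ratio was 25.3. Both libraries thus put Mir143 far above the microRNA beside it, and the size of the ratio differed between them by more than counting error gives. Neither hairpin shares a stretch of 18 bases with another microRNA gene that does not overlap it. The paralog Mir145b, on the same chromosome, had 0 counts in both libraries.

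Mir126a counts were 2.16 times Mir143 counts in replicate 1 (exact binomial 95% interval 2.12 to 2.20) and 2.63 times in replicate 2 (2.58 to 2.68), a mean of 2.39 ± 0.331 (SD, n = 2). Per base of hairpin the mean was 2.06. The order Mir126a, Mir143, Mir145a, Mir214 held in each library, with no overlap between the values of neighbouring members. Divided by hairpin length, their mean levels were 162, 78.2, 3.11 and 0.620 CPM per base. Mature strands are short parts of the hairpin, so counts need not scale with its length, and all values per base are a description only.

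**Figure D3:**
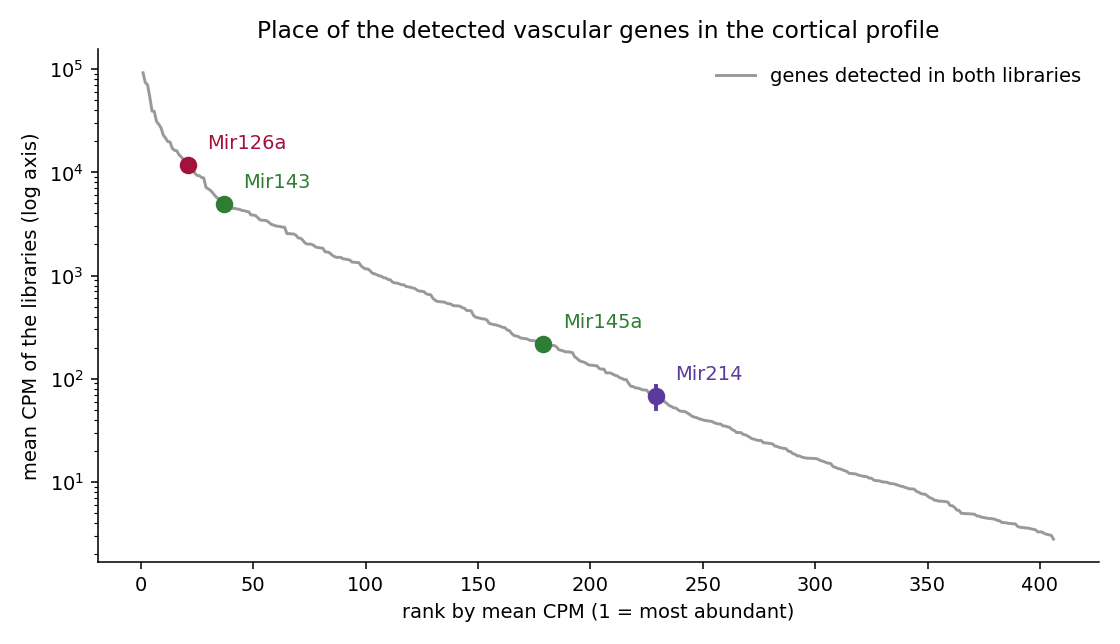
Mean CPM (log axis) of the 406 detected genes against their rank, with the 4 detected members as coloured points and the span of both libraries as vertical lines. Mir126a and Mir143 lie in the steep upper part at ranks 21 and 37, and Mir145a and Mir214 further down at ranks 179 and 229.

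Of the fibroblast members, Mir214 alone was detected. Mir214 (ENSMUSG00000065516.1; chromosome 1, 162223368 to 162223477, plus strand) lies in an exon of Dnm3os and, on the opposite strand, in an intron of Dnm3, a dynamin gene. It had 352 counts (85.6 CPM, exact Poisson 95% interval 76.9 to 95.0) in replicate 1 and 162 counts (50.8 CPM, 43.3 to 59.2) in replicate 2, a mean of 68.2 ± 24.6 CPM (SD, n = 2). It was number 229 of 406, between Mir25 (69.7 ± 7.70 CPM) and Mir374b (66.5 ± 21.8 CPM). Mir145a counts were 2.73 times Mir214 counts in replicate 1 and 3.96 times in replicate 2.

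Mir199a-2 (ENSMUSG00000070126.1; chromosome 1, 162217814 to 162217923, plus strand) lies in an exon of the same Dnm3os transcript unit, 5444 bases before Mir214. It had 0 counts in replicate 1 and 3 counts in replicate 2. Mir199a-1 (ENSMUSG00000065547.1; chromosome 9, 21496495 to 21496564, minus strand), in an intron of Dnm2 on the opposite strand, had 1 count in replicate 1 and 0 in replicate 2. Neither count sets a limit on abundance, and no ratio to Mir214 is given. The hairpins of both genes and of their paralog Mir199b (chromosome 2, plus strand, 32318460 to 32318569, inside an intron of the oppositely oriented Dnm1) are shown with the listed mature sequences in capitals.
Mir199a-1 hairpin: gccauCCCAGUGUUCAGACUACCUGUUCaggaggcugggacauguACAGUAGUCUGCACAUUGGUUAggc
Mir199a-2 hairpin: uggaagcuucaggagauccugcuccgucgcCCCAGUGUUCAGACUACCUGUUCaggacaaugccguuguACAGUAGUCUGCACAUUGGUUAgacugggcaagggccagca
Mir199b hairpin: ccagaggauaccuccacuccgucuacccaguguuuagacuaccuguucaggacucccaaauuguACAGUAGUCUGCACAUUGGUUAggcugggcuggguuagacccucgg
The miR-199a-5p sequence occurs whole in 2 of the 1005 hairpins of the RefSeq table and the miR-199a-3p sequence in 3. Mir199a-1 and Mir199a-2 share stretches of 27 and 26 bases, which hold the mature sequences entirely. A read of either mature strand therefore matches several genomic positions, and such reads were given to no gene. Reads of this kind made up 39.1% of replicate 1 and 41.4% of replicate 2; which microRNAs they came from was not analysed here.

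Mir199b had 10 counts (2.43 CPM) in replicate 1 and 4 counts (1.25 CPM) in replicate 2. Its 3p arm is the shared sequence. Its 5p arm, bases 26 to 48 of the hairpin, differs from miR-199a-5p at a single base, C10U, counted from 1 at the 5′ end of miR-199a-5p. Mir214 shares no more than 7 bases in a row with Mir199a-2. It shares no stretch of 18 bases with another microRNA gene that does not overlap it. Matches of its reads elsewhere in the genome were not examined. Among 954 microRNA genes with mature and hairpin sequences in the RefSeq table, 38 had every listed mature sequence in several hairpins. Both Mir199a genes were included, and so was Mir199b, for which only the 3p strand is listed. Of these 38 genes 6 were detected (15.8%), and 27 had 0 counts in both libraries. Of the 54 genes with some but not all listed mature sequences in several hairpins, 37 were detected (68.5%). Of the 862 genes whose listed mature sequences each occur in 1 hairpin, 301 were detected (34.9%), against 18.4% of all 2202 genes. Detection thus did not simply fall with copies, as it was highest in the class with some. These are counts over an incomplete table, given as a description.

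**Figure D4:**
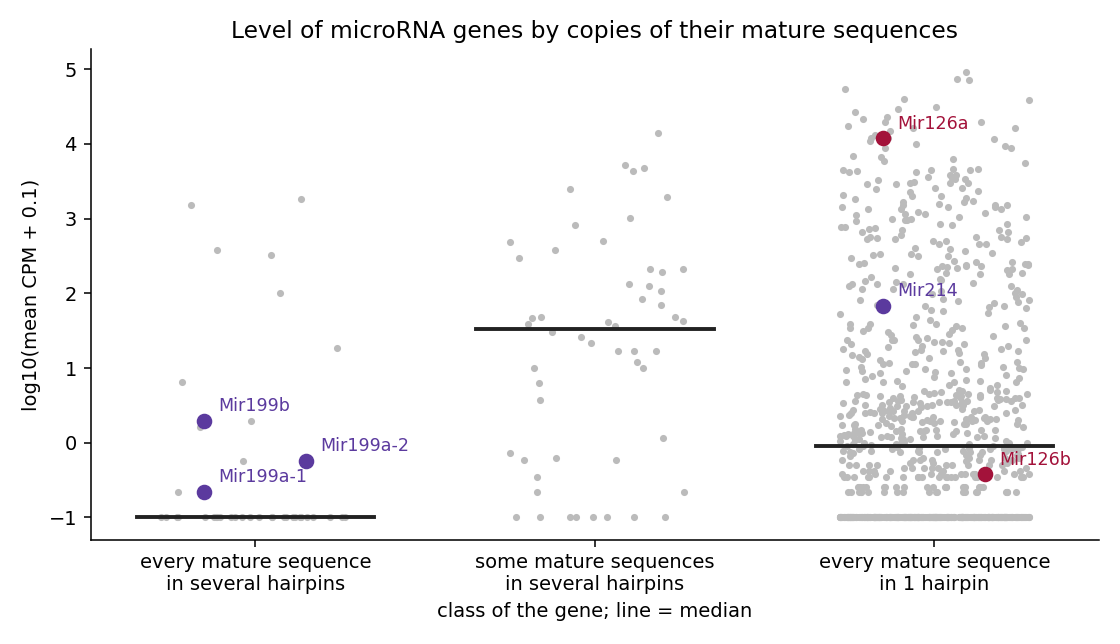
log10 of mean CPM plus 0.1 for microRNA genes by whether all, some or none of their listed mature sequences occur in several hairpins, with class medians as black lines. Mir199a-1, Mir199a-2 and Mir199b are in the class at the left, whose median is 0 CPM, and Mir126a, Mir126b and Mir214 in the class at the right. The class in the middle has the highest median, 33.2 CPM.

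The members' hairpins also differed in predicted folding. Minimum free energy per base, from RNAfold, was -0.61 kcal/mol for Mir214 and -0.59 for Mir143, against a median of -0.43 for detected genes and -0.37 for all genes. Mir126a and Mir145a lay at the detected median, at -0.43 each. Mir126b had the weakest fold of the 7 members at -0.33 and the lowest GC content at 39.7%.

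The libraries were then compared gene by gene, as log2 of replicate 1 over replicate 2. The two-sided exact binomial test used here compares 2 libraries with read sampling alone and no conditions. All 4 detected members passed it at an adjusted p under 0.05, against 58.1% of the 406 detected genes. Higher in replicate 1 were 2 members, against 34.7% of the detected genes, and lower were the other 2, against 23.4%. None of the 4 members was over 2-fold apart, against 9.85% of the detected genes.

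Mir126a was lower in replicate 1, with a log2 ratio of -0.33 (95% interval -0.35 to -0.32; adjusted p = 1.60e-248, exact binomial test). Mir143 was nearly level, with a log2 ratio of -0.05 (-0.08 to -0.02; adjusted p = 0.00172, exact binomial test). Mir145a, from the same precursor, was higher in replicate 1 at 0.22 (0.07 to 0.36; adjusted p = 0.00641, exact binomial test). Mir214 had the largest ratio of the 4 members, 0.75 (0.48 to 1.03; adjusted p = 5.16e-08, exact binomial test). Of all detected genes, 17.5% had a larger absolute log2 ratio than Mir214, 46.3% than Mir126a, 61.8% than Mir145a and 91.4% than Mir143. The median absolute log2 ratio was 0.30. With TMM library sizes, which lower every log2 ratio by 0.08, Mir145a no longer passed (log2 ratio 0.14, adjusted p = 0.103, exact binomial test). The other 3 members still passed in the same direction, against 54.4% of the detected genes. Over all detected genes that scaling gave 110 higher and 111 lower in replicate 1, in place of 141 and 95.

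**Figure D5:**
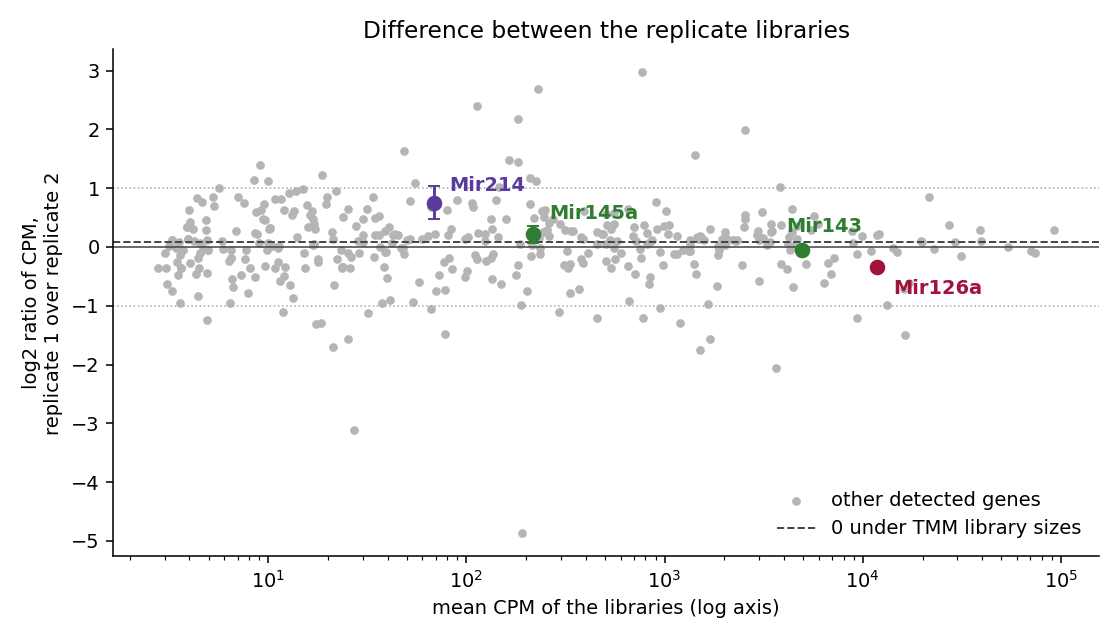
log2 ratio of CPM, replicate 1 over replicate 2, against mean CPM (log axis) for the 406 detected genes in grey and the 4 detected members in colour with exact 95% intervals; dotted lines mark 2-fold and the dashed line marks where 0 lies under TMM library sizes. Mir214 lies highest of the members at 0.75 and Mir126a lowest at -0.33, all within the dotted lines.

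Other microRNAs named for vessels or growth of vessels gave context. Of 19 such genes 16 were detected. An 18-base stretch is shared with another gene by 7 of the 19, so their counts can be too low. In counted reads, none of the 19 exceeded the mean CPM of Mir126a, and 1 exceeded Mir143. That gene was Mir23a, known from endothelial cells among others, with 6716 CPM in replicate 1, 5149 CPM in replicate 2; it shares an 18-base stretch with Mir23b and is uncertain. Mir130a had 4341 and 3369 CPM, Mir221 had 3147 and 2721 CPM, and its neighbour Mir222 had 2136 and 724 CPM. Mir21a, known from injured vessels and many other tissues, had 687 CPM in replicate 1, against 2314 CPM in replicate 2. Mir210, which responds to low oxygen, had 58.4 and 97.2 CPM, near the level of Mir214. Many of these genes are also expressed outside vessels, and their counts were not assigned to a cell type.

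Markers of blood cells and of microglia stood far below the endothelial member. Of the 4 erythroid genes 3 were detected, and their summed level was 76.4 CPM in replicate 1, against 114 CPM in replicate 2. The lower sum in replicate 1 came mostly from Mir451a, with 37.0 CPM in replicate 1, against 70.5 CPM in replicate 2. Mir144 (14.6 and 15.7 CPM) and Mir486 (24.3 and 26.0 CPM) were nearly level. The leukocyte and microglia list of 3 genes summed to 958 and 884 CPM. All 3 genes were detected, with Mir150 highest at 827 and 799 CPM. Of the 5 genes for heart and skeletal muscle, which could mimic a smooth muscle signal, Mir206 alone was detected, at 20.7 and 23.8 CPM; the other 4 had 0 counts, but share an 18-base stretch with another gene, so these 0 counts set no limit. The part of these cells in the members' levels was not tested.

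Genes of the tissue's other cells were present at their own levels. The 8 neuron genes summed to 35881 and 36020 CPM, with 5 detected, and Mir128-1 was highest at 14046 and 14259 CPM, above Mir126a in both libraries. The 3 oligodendrocyte genes summed to 2864 and 2531 CPM and the 3 choroid plexus genes to 694 and 888 CPM. The summed level of the members (1.56% and 1.84% of the counts) was below that of the neuron genes and above that of the oligodendrocyte genes in both libraries. An 18-base stretch is shared with another gene by 7 of the neuron genes and 2 of the oligodendrocyte genes, so both sums can be too low, and the place of the members above the oligodendrocyte genes holds for counted reads only.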

How the data were processed

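Small RNA sequencing of 2 libraries was analysed. The authors deposited raw counts of reads for each microRNA gene, without normalization, in 3 columns (strand ignored, strand of the gene, opposite strand), after 4 rows for reads in no gene. The layout is that of a STAR table, while the aligner is not given in the sources used here. Text deposited with the files names mm10 and GENCODE M21, and all 2202 gene IDs matched M21. Hairpin arms are not separated.

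CPM is the count on the gene's strand over the sum of such counts. Each detected gene's split of counts was tested against the split of library totals (two-sided exact binomial test, SciPy 1.17.1, Benjamini-Hochberg over the 406 detected genes); edgeR's quasi-likelihood test has no residual degrees of freedom here. With 2 libraries of 1 group no test over samples is possible. TMM sizes came from edgeR 4.0.16, size factors from DESeq2 1.42.0 and folding energies from ViennaRNA 2.7.2. The exact binomial test alone was tried on simulated counts that varied by read sampling only. It called 3.40% of 206 unchanged genes and 95 of 100 genes set 2-fold apart. Spread beyond read sampling was not simulated. Members and lists were chosen with earlier results of these data known. Named are all members, their neighbours in rank, the paralogs and a part of the genes of the lists. Mir92a-1, Mir486a and Mir486b of the lists are Mir92-1, Mir486 and Mir3107 in M21, matched by RefSeq synonym and position.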

Additional observations from a re-analysis of the deposited data

Results flagged for a closer look

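Reads that matched several genomic positions lie outside the counts used. Their share was 39.1% in replicate 1 and 41.4% in replicate 2. Any reads of miR-199a-5p and miR-199a-3p would be among them, since both sequences occur in more than 1 hairpin. Their number was not analysed here.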

How the results depend on the processing

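Of 74 values of the results on levels, shares, ratios and counts under alternatives other than leaving out a replicate, 54 stayed within 1 SD (1.5 times for counts) and 20 moved. Ignoring strand gave 0.392 CPM for Mir126a, 0 for Mir126b and 5291 for Mir143; shares of 0.560% for all members, 3.92e-05% for the endothelial and 0.552% for the mural members; and a ratio of Mir126a to Mir143 of 7.54e-05. With all reads as the total, CPM were 4313 for Mir126a, 0.102 for Mir126b, 1800 for Mir143, 79.5 for Mir145a and 24.9 for Mir214, and shares 0.622% for all, 0.431% for endothelial, 0.188% for mural and 0.00251% for fibroblast members; this follows from the larger total. Leaving the most abundant gene out of the total gave 5429 CPM for Mir143 and 0.567% for the mural members. A 2-fold rule in place of the exact test called 40 genes and 0 members. DESeq2 size factors gave 108 higher and 112 lower in replicate 1, and Mir145a did not pass (log2 ratio 0.13, adjusted p = 0.112, exact binomial test). Over its alternatives the adjusted p of Mir145a ranged from 0.00488 to 0.112. With 2 libraries, leaving out either cannot move a value by more than its SD. The ratios of Mir214 and of Mir199a-1 to Mir199a-2 were not run, since Mir199a reads were not counted. No paired analysis was possible because there was 1 group.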
